A study of Mus musculus with 16 samples.

Results

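PU.1 and 9 further transcription factors of the ETS family were followed in bone marrow progenitors that have lost most of their PU.1 transcript. The 10 genes, *Spi1* (which encodes PU.1), *Spib*, *Spic*, *Ets1*, *Ets2*, *Elf1*, *Elf4*, *Erg*, *Fli1* and *Etv6*, were taken by their symbols from the 54347 genes of the count table, and all 10 were found there. Both cell types came from the femurs of C57BL/6 littermates aged 8 to 12 weeks. The UREΔ mice (genotype label URE) lack the upstream regulatory element of *Spi1*, an enhancer, in every cell of the body, so that the loss is not restricted to blood cells. WT littermates carry the intact element. LSKs (Lin-Sca-1+c-Kit+ cells, the compartment of stem cells and multipotent progenitors) and GMPs (Lin-Sca-1-c-Kit+Cd16/32+ cells, the granulocyte-monocyte progenitors) were sorted after enrichment of c-Kit+ cells and removal of lineage-positive cells. No agent was given. Each of the 4 groups, UREΔ LSK, WT LSK, UREΔ GMP and WT GMP, holds 4 libraries, each from 1 mouse, and the question was which ETS transcripts change when PU.1 falls and whether other ETS factors make up for it.

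ETS factors share a DNA-binding domain that contacts a short core, GGAA, and differ in the bases they prefer around it and in the partners they bind with. PU.1, SPI-B and SPI-C form a class of their own that favours purines before the core, and PU.1 is needed for the myeloid and B-lymphoid fates, at high levels for macrophages and at lower ones for granulocytes. ERG, FLI1 and ETV6 are known for maintaining haematopoietic stem cells, ELF4 and ELF1 for regulating quiescence and haematopoietic genes, and ETS1 for lymphocyte development.

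Of the 10 genes, 7 had a promoter window in the RefSeq table of GRCm38.p6, which spans 250 bases before to 50 bases after a transcription start. The windows of *Spib* and *Spic*, the factors closest to PU.1, and 1 of *Elf4*, the member with the most core matches, are shown to make the motif counts below visible. Capitals mark GGAA or its reverse complement TTCC, and each sequence reads 5′ to 3′ along the gene's own strand.
Spib, chr7:44532022-44532321, minus strand: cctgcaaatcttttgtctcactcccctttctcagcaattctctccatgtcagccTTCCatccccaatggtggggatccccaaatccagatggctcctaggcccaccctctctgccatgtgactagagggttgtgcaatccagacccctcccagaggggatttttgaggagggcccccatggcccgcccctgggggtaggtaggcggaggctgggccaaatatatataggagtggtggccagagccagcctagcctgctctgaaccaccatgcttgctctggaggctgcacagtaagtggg
Spic, chr10:88682974-88683273, minus strand: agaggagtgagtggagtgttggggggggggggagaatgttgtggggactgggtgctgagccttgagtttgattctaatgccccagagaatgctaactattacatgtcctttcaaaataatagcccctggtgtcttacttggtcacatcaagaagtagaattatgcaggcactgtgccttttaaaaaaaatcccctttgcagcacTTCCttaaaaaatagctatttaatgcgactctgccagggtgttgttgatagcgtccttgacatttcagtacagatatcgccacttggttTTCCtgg
Elf4, chrX:48463083-48463382, minus strand: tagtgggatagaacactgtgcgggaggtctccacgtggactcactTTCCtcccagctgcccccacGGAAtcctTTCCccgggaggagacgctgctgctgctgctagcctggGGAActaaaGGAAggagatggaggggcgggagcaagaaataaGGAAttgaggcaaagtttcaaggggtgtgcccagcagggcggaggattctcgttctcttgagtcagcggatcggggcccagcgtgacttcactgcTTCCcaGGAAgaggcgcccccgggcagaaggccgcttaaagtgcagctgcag
The *Spib* window held 1 core match, the *Spic* window 2 and this *Elf4* window 8, where the median over all 32851 windows of 300 bases was 3 and 96% held at least 1. The longer form GAGGAA, searched on both strands and always containing a core match, was present in 28.3% of all windows. Among the members it lay in both *Elf4* windows and in no window of *Spib*, *Spic*, *Ets2*, *Elf1*, *Erg* or *Etv6*. A match is a description of letters in the window and not a binding site.

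Total counts per library lay between 20028302 and 29128858. Markers followed the sort: summed over 8 genes such as *Mpo* and *Elane*, GMP markers lay at 2670 to 3360 CPM (counts scaled to a common library size, with TMM factors) in UREΔ and 3590 to 4280 CPM in WT LSKs, and at 74600 to 161000 CPM in UREΔ and 56100 to 71900 CPM in WT GMPs. The genotypes did not overlap in this sum in either cell type, although single markers of the list were called in both directions in each. The part of the difference in the sum in the results below was not tested. Replicates 1 and 4 and replicates 2 and 3 were also read apart, a split seen in these data to which the labels give no batch. Y-linked transcripts were at a mean above 5 log2 CPM in 3 of 4 WT mice and in 1 of 4 UREΔ mice, so that sex was uneven over the genotypes but alike within replicates 1 and within replicates 4. Summed neutrophil markers were also higher in UREΔ, at 177 to 357 against 35.1 to 177 CPM in LSKs and at 217 to 993 against 49.8 to 153 CPM in GMPs. Of these markers 5 were tested in LSKs, with 1 called higher and 0 lower, and 6 in GMPs, with 1 called higher and 1 lower. Summed basophil and mast cell markers were higher in UREΔ too, at 87.6 to 157 against 23.3 to 44.3 CPM in LSKs and, with overlap, at 848 to 2340 against 628 to 1230 CPM in GMPs, where *Mcpt8* was called higher but *Prss34* and *Ms4a2* lower. The lineage stain of the sort includes Gr1, which marks neutrophils. The part of both cell types in the results below was not tested.

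**Figure D1:**
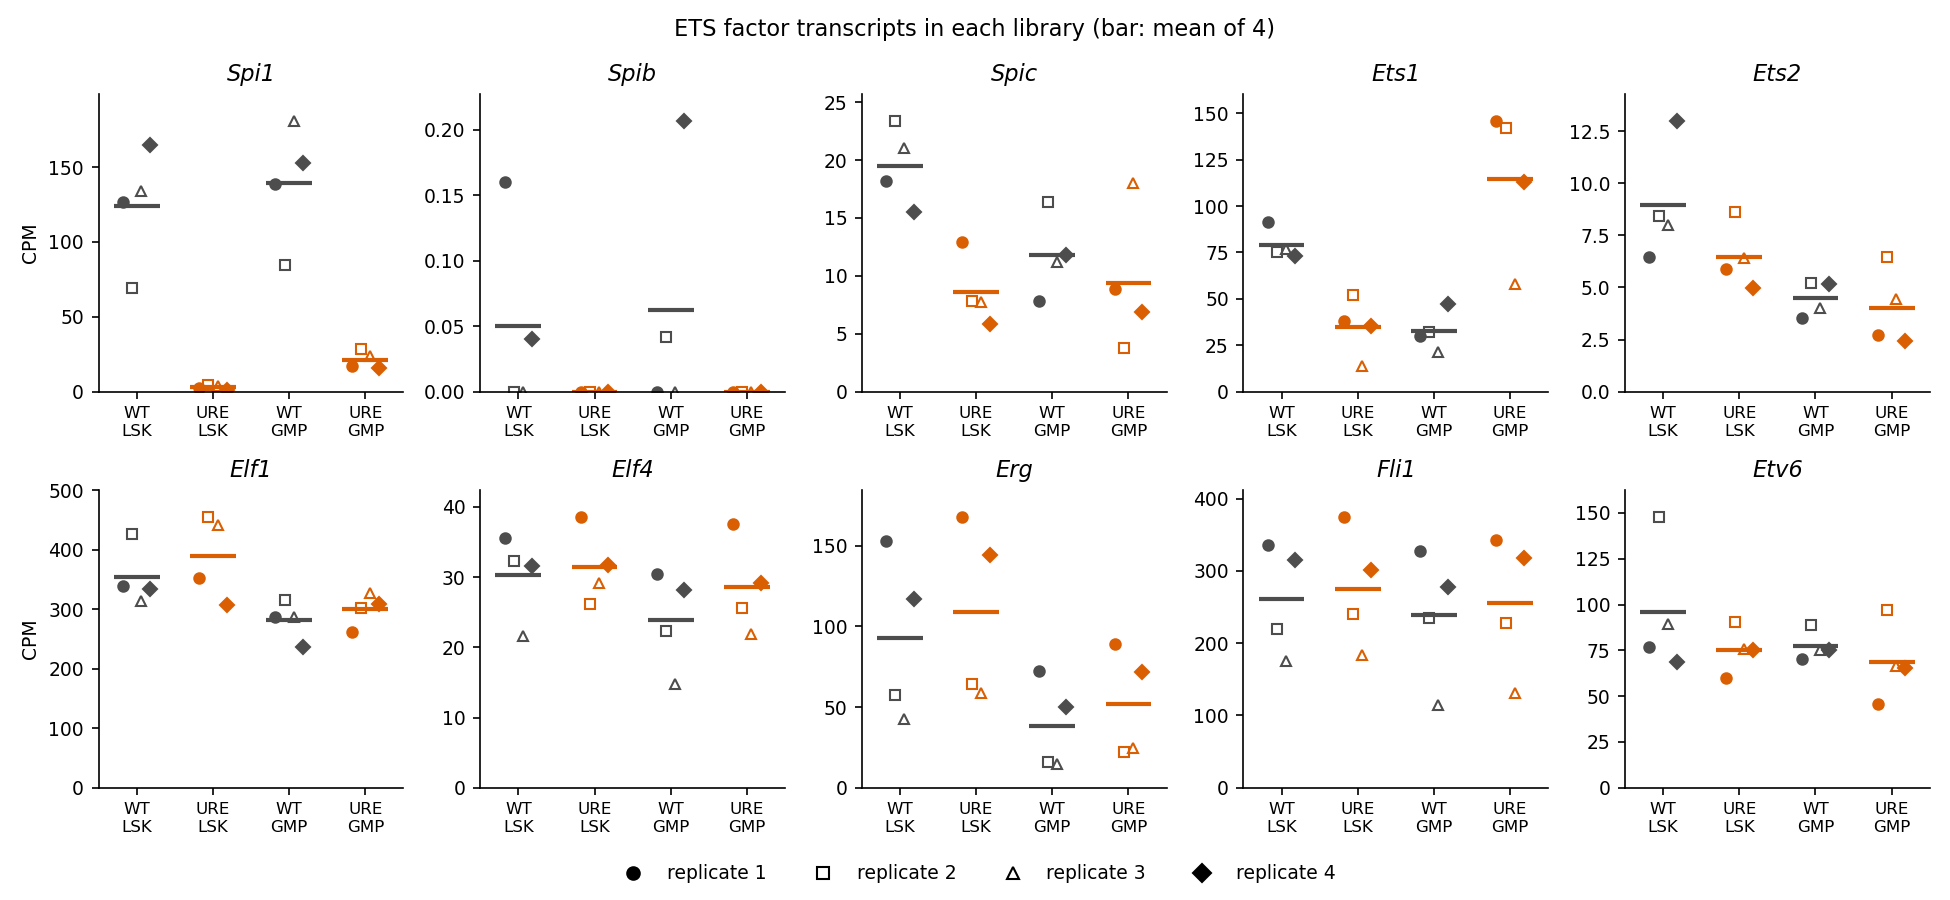
Transcript level of the 10 ETS factors in every library, in CPM on a linear axis from 0, by genotype and cell type (WT grey, URE orange). Points are single libraries, filled for replicates 1 and 4 and open for replicates 2 and 3, and bars are means of 4. *Spi1* was lower in all UREΔ libraries, *Ets1* was lower in UREΔ LSKs and higher in UREΔ GMPs, and *Erg* and *Fli1* were higher in replicates 1 and 4 of each group.

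*Spi1* was nearly lost in UREΔ LSKs and reduced less in UREΔ GMPs. In LSKs its level was 2.84, 4.44, 3.66 and 1.13 CPM in UREΔ replicates 1 to 4, against 127, 69.5, 134 and 165 CPM in WT. In GMPs it was 17.3, 28.6, 23.6 and 15.6 CPM in UREΔ, against 139, 84.7, 181 and 153 CPM in WT. The genotypes did not overlap in either cell type, and UREΔ LSKs kept 27 to 134 counts per library, so that a residual transcript was measured in each. *Spi1* lies at chr2:91082390-91115756 (GRCm38, ENSMUSG00000002111) and served as the check of the genotype labels. In bulk samples like these, fewer cells with the transcript and less transcript per cell cannot be told apart.

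The fall of *Spi1* was 41.8-fold in LSKs (log2 fold change -5.39, SE 0.471, edgeR adjusted p = 0.000266) and 6.64-fold in GMPs (log2 fold change -2.73, SE 0.296, edgeR adjusted p = 0.00095). The effects differed between the cell types by 2.64 on the log2 scale (SE 0.517, 95% confidence interval 1.54 to 3.74, edgeR interaction adjusted p = 0.0218). Without WT LSK replicate 4 the difference was 2.47 and its adjusted p 0.0503. Within replicates 1 and 4 it was 3.05 (adjusted p = 0.0263) and within replicates 2 and 3 it was 2.30 (adjusted p = 0.681). From LSK to GMP, *Spi1* rose 6.85-fold in UREΔ cells (log2 fold change 2.78, SE 0.419, edgeR adjusted p = 0.00183), whereas WT GMPs and WT LSKs differed by 0.16 (SE 0.301, 95% confidence interval -0.52 to 0.84). The plot of *Spi1* and *Ets1* in same-numbered libraries shows the rise in each of the 4 UREΔ pairs. Within replicates 2 and 3 alone the fall in GMPs was -2.39 with an edgeR adjusted p of 0.0713, and within replicates 1 and 4 it was -3.16 with an adjusted p of 0.000451.

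**Figure D2:**
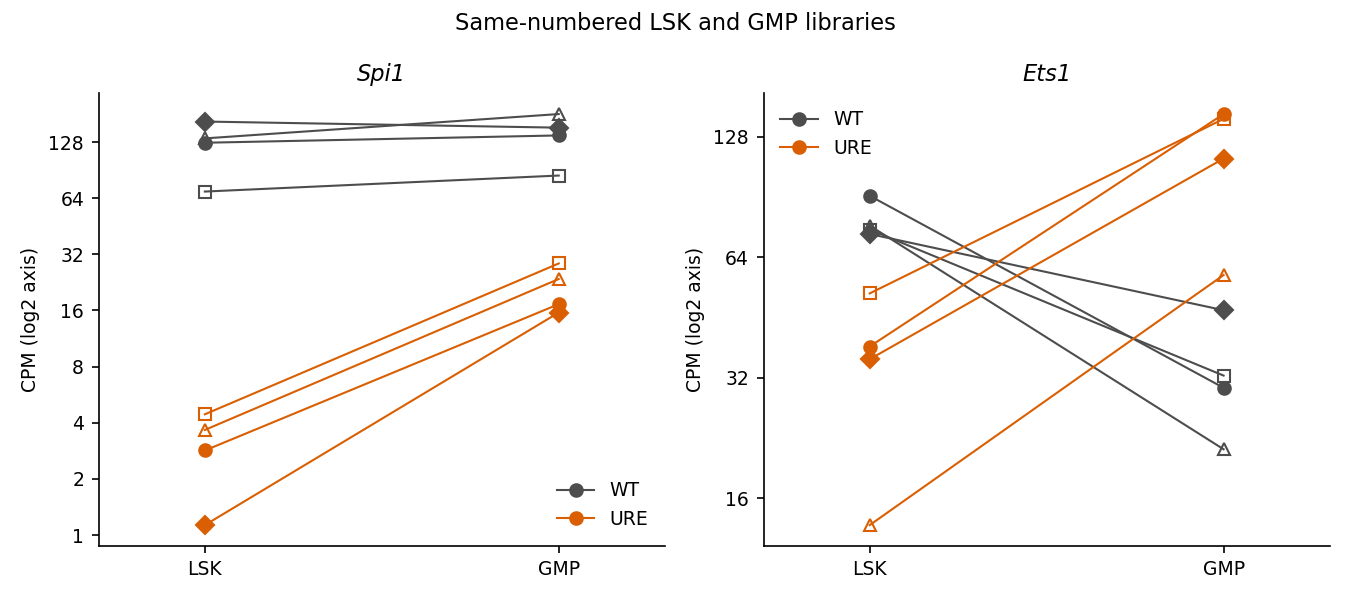
*Spi1* and *Ets1* in LSK and GMP libraries of the same replicate number, in CPM on a log2 axis. Lines join same-numbered libraries of 1 genotype (WT grey, URE orange) and marker shapes are replicate numbers, as in the plot of all 10 factors. *Spi1* rose from LSK to GMP in all 4 UREΔ pairs, and *Ets1* rose in all 4 UREΔ pairs and fell in all 4 WT pairs.

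Of the 9 members that passed the filter on low counts, 2 were called in LSKs, *Spi1* and *Spic*, both lower, where a call needs an adjusted p under 0.05 and a change above 1.5-fold. Over all 15154 genes tested, 6.14% were called in LSKs (2.38% higher and 3.76% lower). In GMPs 2 of the 9 were called, *Spi1* lower and *Ets1* higher, with 8.3% of 13829 genes called (4.67% higher and 3.63% lower). The interaction was called for *Spi1* and *Ets1*, against 1.22% of 15935 genes (0.866% higher and 0.351% lower). Leaving out *Spi1*, the median log2 fold change of the 8 others was -0.18 in LSKs and 0.09 in GMPs, beside 0.00093 and 0.0052 over all genes tested. Counts of 2 in 9 are small, and nothing particular to the family is read from them.

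The calls given below under other settings have their own backgrounds. In LSKs 5.62% of genes were called with DESeq2, 9.46% with the replicate block, 6.42% within replicates 1 and 4 and 2.46% within replicates 2 and 3. The same settings called 7.2%, 16.3%, 8.82% and 0.759% in GMPs, and 2.17%, 6.57%, 1.09% and 0.0123% for the interaction. For WT GMPs against WT LSKs they called 18.1%, 40.9%, 20.1% and 16.4%, and for UREΔ GMPs against UREΔ LSKs 15%, 31.9%, 28.6% and 5.5%. Within replicates 2 and 3 few genes of any kind were called in GMPs or for the interaction.

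*Spib*, the closest relative of PU.1 and a factor of B cells and plasmacytoid dendritic cells, was not detected in UREΔ cells. It lies at chr7:44525993-44532071 and had 0 counts in all 8 UREΔ libraries, which allows up to 0.0319 CPM over the UREΔ LSK libraries and 0.0337 CPM over the UREΔ GMP libraries (3 counts of the group's total, counting error only). In WT it had 6 counts over the 4 LSK libraries and 5 over the 4 GMP libraries. It did not pass the filter in any comparison and was not tested. Summed B cell markers were at 24.9 to 36.4 CPM in UREΔ LSKs against 58.2 to 83.4 CPM in WT LSKs, and at 8.24 to 23.7 CPM in UREΔ GMPs against 61.4 to 89.1 CPM in WT GMPs, with *Pax5* at 0 in all groups but WT LSKs. Summed plasmacytoid dendritic cell markers overlapped, at 204 to 367 CPM in UREΔ LSKs against 255 to 381 CPM in WT LSKs. In GMPs they were at 150 to 188 CPM in UREΔ against 169 to 227 CPM in WT. *Siglech* of that list was at 0 in all UREΔ LSK libraries. Of its 5 markers, 4 were tested in LSKs, where 1 was called lower by edgeR, and 3 in GMPs, where 0 were called. At an unadjusted edgeR p under 0.05 were 2 in LSKs and 1 in GMPs. Of the 6 B cell markers, 3 were tested in LSKs and 1 in GMPs, and 1 was called lower in each. Over all genes 3.76% were called lower in LSKs and 3.63% in GMPs. The part of B cells or plasmacytoid dendritic cells in the *Spib* counts was not tested.

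*Spic*, which encodes the third factor of the PU.1 class and is needed for red pulp macrophages, was lower in UREΔ LSKs. The gene lies at chr10:88674772-88685015, and its level was 12.9, 7.82, 7.74 and 5.85 CPM in UREΔ LSKs and 18.2, 23.4, 21 and 15.5 CPM in WT LSKs. The genotypes did not overlap in LSKs, as for 12.6% of the genes tested there. The log2 fold change was -1.22 (SE 0.284, 95% confidence interval -1.86 to -0.59, edgeR adjusted p = 0.0338), a 2.33-fold fall. The call was lost in a joint fit of all libraries (adjusted p = 0.0891), with Y-linked transcripts as a covariate (-0.93, adjusted p = 0.11), within replicates 1 and 4 (-0.89, adjusted p = 0.264) and within replicates 2 and 3 (-1.54, adjusted p = 0.0945). It was also lost without any 1 library except UREΔ LSK replicate 1. Left out one at a time, the other 7 libraries gave -1.08 to -1.33 with adjusted p of 0.0542 to 0.114.

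UREΔ GMPs and WT GMPs were closer, with *Spic* at 8.87, 3.81, 18 and 6.92 CPM and at 7.83, 16.4, 11.2 and 11.8 CPM. The groups overlapped and the log2 fold change was -0.32 (SE 0.456, 95% confidence interval -1.35 to 0.71, edgeR adjusted p = 0.785). The interaction was not called (0.86, SE 0.547, edgeR adjusted p = 0.631), so that a difference of the *Spic* effect between cell types was not shown. Summed macrophage markers were lower in UREΔ LSKs, at 55.8 to 89 against 71 to 152 CPM, with 0 of 7 markers called by edgeR (2 at an unadjusted p under 0.05) and none at 0 in all libraries of a group. In GMPs the sum was at 124 to 371 CPM in UREΔ against 93.1 to 199 CPM in WT, with 1 of 7 called, *Adgre1*, which was lower (2 at an unadjusted p under 0.05). The part of macrophages in the *Spic* levels was not tested.

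*Ets1*, a factor of lymphoid development and the founding member of the family, differed between the genotypes in opposite directions in the 2 cell types. The gene lies at chr9:32636221-32757820. In LSKs it was at 38.3, 52, 13.7 and 35.6 CPM in UREΔ and at 91.2, 75.1, 76.8 and 73.2 CPM in WT, so that all UREΔ libraries lay below all WT libraries. In GMPs it was at 146, 142, 57.8 and 113 CPM in UREΔ and at 30.2, 32.4, 21.2 and 47.2 CPM in WT, so that all UREΔ libraries lay above all WT libraries. In GMPs 14.8% of all genes tested did not overlap between the genotypes.

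The rise in GMPs was 3.48-fold (log2 fold change 1.80, SE 0.323, 95% confidence interval 1.07 to 2.53, edgeR adjusted p = 0.00895). It kept its call without any 1 library, with log2 fold changes of 1.63 to 2.01. In LSKs the log2 fold change was -1.21 (SE 0.342, 95% confidence interval -1.98 to -0.45) and missed the threshold with an edgeR adjusted p of 0.0776. With the replicate number as a block it was -1.34 with an adjusted p of 0.0291, with DESeq2 the adjusted p was 0.0274, and without UREΔ LSK replicate 2 or replicate 3 it was 0.0449 or 0.0305. It was 0.0614 in the joint fit, 0.28 with the Y-linked covariate, 0.0184 within replicates 1 and 4 and 0.351 within replicates 2 and 3. The exact two-sided permutation test gave p = 0.0286 for *Ets1* in each cell type, the smallest value that 4 against 4 libraries allow.

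The difference between the *Ets1* effects was tested directly and amounted to 2.99 on the log2 scale (SE 0.509, 95% confidence interval 1.91 to 4.07, edgeR interaction adjusted p = 0.00885). Put by genotype, *Ets1* fell from LSK to GMP in WT (log2 fold change -1.28, SE 0.24, edgeR adjusted p = 0.00405) and rose in UREΔ (1.68, SE 0.405, edgeR adjusted p = 0.0163). Within replicates 2 and 3 the rise in UREΔ was 1.59 and not called (adjusted p = 0.197), and within replicates 1 and 4 it was 1.82 (adjusted p = 0.00102). The interaction was 2.90 within replicates 1 and 4 (adjusted p = 0.0144) and 3.09 within replicates 2 and 3, where it was not called (adjusted p = 0.699). For the rise in GMPs the same subsets gave 1.72 (adjusted p = 0.0112) and 1.86 (adjusted p = 0.149). Summed T and NK cell markers, of cells that also express *Ets1*, were at 41.2 to 52.6 CPM in UREΔ LSKs and 52 to 112 CPM in WT LSKs, and at 8.92 to 28.5 CPM in UREΔ GMPs and 7.53 to 13.8 CPM in WT GMPs. Only 2 of the 7 markers of that list passed the filter in LSKs and 1 in GMPs, and 0 of these were called between the genotypes (edgeR, *Lck* in LSKs at an unadjusted p under 0.05). Of its markers *Cd3e* and *Cd3d* were at 0 in UREΔ LSKs, *Cd3e* in UREΔ GMPs, *Cd3e* and *Cd3g* in WT GMPs and none in WT LSKs.

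Summed endothelial markers moved with *Ets1* in both cell types, at 98.7 to 146 CPM in UREΔ against 189 to 259 CPM in WT LSKs and at 232 to 404 CPM in UREΔ against 137 to 203 CPM in WT GMPs, with no overlap. Most of this sum was *Pecam1*, which blood progenitors also express, and its interaction was called as well (1.56, SE 0.252, edgeR adjusted p = 0.00771), while *Tek* was called lower in UREΔ in both cell types and none of the 5 markers was at 0 in a whole group. Summed GMP markers, given above, were likewise lower in UREΔ LSKs and higher in UREΔ GMPs, but the 8 single markers did not all go with their sum. By edgeR 1 was called higher and 2 lower in LSKs, and 1 higher and 1 lower in GMPs. Over all genes 6.14% and 8.3% were called. The median log2 fold change of the 8 markers was 0.258 in LSKs and 0.767 in GMPs. The lineage stain of the sort includes Cd3, Cd4 and Cd8, which mark T cells. The part of T, NK or endothelial cells in the *Ets1* levels was not tested.

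*Ets2*, the close paralogue of *Ets1* and a target of Ras signalling, had no called genotype difference. It lies at chr16:95702075-95721051, and its level was low in all groups, with 5.88, 8.64, 6.4 and 4.97 CPM in UREΔ LSKs, 6.44, 8.45, 8 and 13 CPM in WT LSKs, 2.7, 6.47, 4.46 and 2.42 CPM in UREΔ GMPs and 3.55, 5.23, 4 and 5.18 CPM in WT GMPs. The genotypes overlapped in both cell types, with log2 fold changes of -0.50 (95% confidence interval -1.16 to 0.17) in LSKs and -0.17 (95% confidence interval -0.97 to 0.62) in GMPs. *Ets2* fell from LSK to GMP in WT (-1.01, SE 0.283, edgeR adjusted p = 0.026). That call was lost, with adjusted p of 0.0518 to 0.0776, without WT GMP replicate 1 or 3 or WT LSK replicate 2 or 4. It was also lost within replicates 1 and 4 (-1.15, adjusted p = 0.111), within replicates 2 and 3 (-0.76, adjusted p = 0.211) and without the low-count filter (adjusted p = 0.0573). In UREΔ the log2 fold change was -0.73 (edgeR adjusted p = 0.204), and with the replicate block -0.81 (adjusted p = 0.0486).

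**Figure D3:**
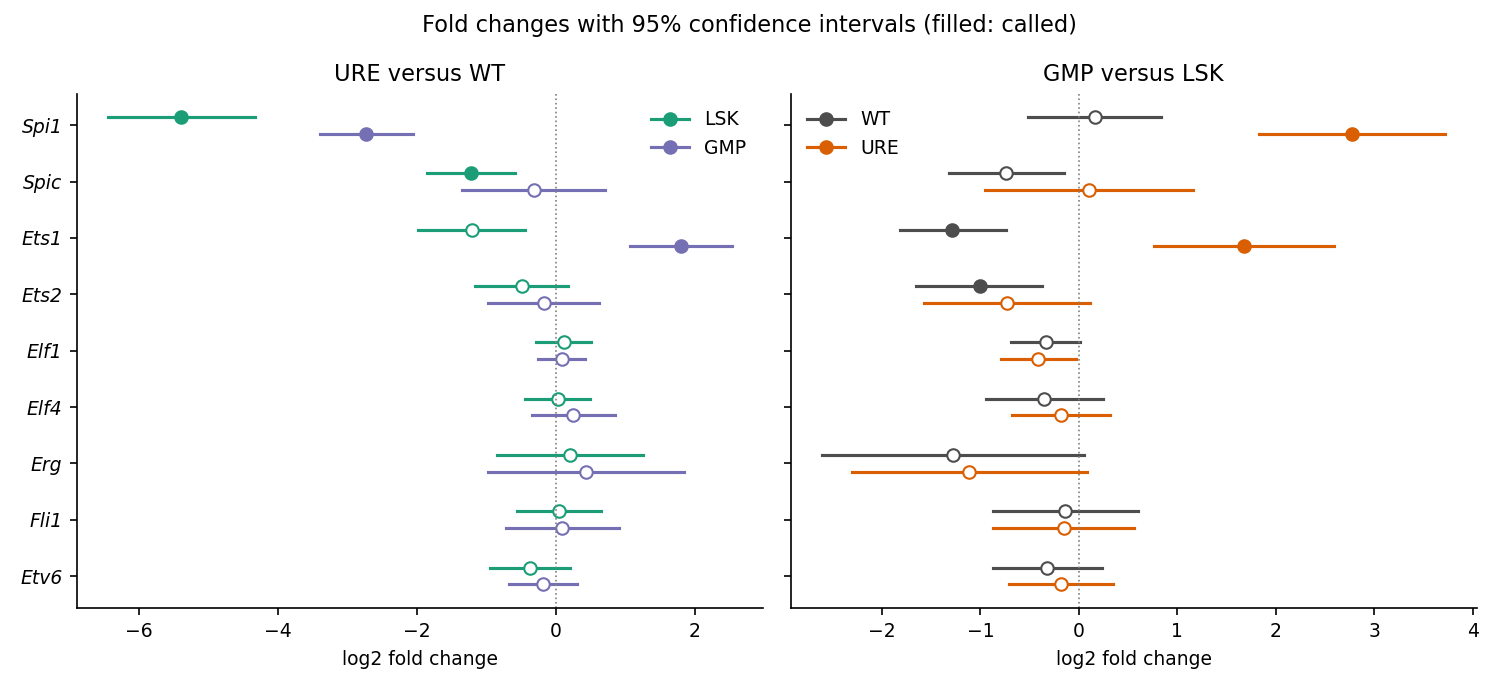
Log2 fold changes of the 9 tested members with 95% confidence intervals, for UREΔ against WT in LSKs and GMPs (left) and for GMP against LSK in WT and UREΔ (right). Filled points were called by edgeR. Apart from *Spi1*, the called members were *Spic* in LSKs and *Ets1* in GMPs on the left, and *Ets1* on both sides of 0 and *Ets2* on the right.

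*Erg* and *Fli1* encode a pair of closely related factors that act together at stem cell enhancers, and neither was called between the genotypes. *Erg* lies at chr16:95359169-95586593 and *Fli1* at chr9:32422204-32542861. In LSKs *Erg* was at 168, 64.3, 58.7 and 144 CPM in UREΔ and at 153, 57.6, 42.5 and 117 CPM in WT. Its GMP levels were 89.1, 22.4, 24.4 and 72 CPM in UREΔ and 72.5, 16.1, 15 and 50.3 CPM in WT. Replicates 1 and 4 were above replicates 2 and 3 in each group, and UREΔ was above WT in 4 of 4 same-numbered pairs in both cell types. The log2 fold change was 0.20 in LSKs (SE 0.467, 95% confidence interval -0.85 to 1.25) and 0.43 in GMPs (SE 0.623, 95% confidence interval -0.97 to 1.84). With the replicate block the intervals narrowed: *Erg* was 0.23 higher in UREΔ LSKs (SE 0.117, adjusted p = 0.296) and 0.49 higher in UREΔ GMPs (SE 0.139, adjusted p = 0.0463), which is under the 1.5-fold threshold.

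Across maturation *Erg* was the member whose call depended most on the pairing. It was lower in GMPs than in LSKs by 1.28 on the log2 scale in WT (fold change -1.28, SE 0.589, edgeR adjusted p = 0.139) and by 1.11 in UREΔ (fold change -1.11, SE 0.53, edgeR adjusted p = 0.172). With the replicate block it was called in both, at -1.41 (SE 0.136, adjusted p = 8.29e-05) and -1.21 (SE 0.142, adjusted p = 0.000443). Within replicates 1 and 4 the WT fall was -1.14 (adjusted p = 0.029) and within replicates 2 and 3 it was -1.61 (adjusted p = 0.0192).

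*Fli1* was among the most abundant ETS transcripts in all 4 groups, at 375, 241, 183 and 301 CPM in UREΔ LSKs, 336, 219, 175 and 315 CPM in WT LSKs, 343, 228, 131 and 318 CPM in UREΔ GMPs and 328, 235, 114 and 278 CPM in WT GMPs. It repeated the split between replicates and the genotypes differed by 0.05 in LSKs (95% confidence interval -0.56 to 0.65) and 0.09 in GMPs (95% confidence interval -0.72 to 0.90) on the log2 scale. With the block the standard errors were 0.111 and 0.117 and the differences 0.04 and 0.09. Of 5 further factors known to bind with ERG and FLI1 in stem cells (*Tal1*, *Lyl1*, *Lmo2*, *Gata2* and *Runx1*), 0 of 5 were called between the genotypes in LSKs or GMPs by edgeR (at an unadjusted p under 0.05, *Lyl1* and *Runx1* in LSKs and 0 in GMPs), with log2 fold changes from -0.65 for *Runx1* in LSKs to 0.42 for *Lyl1* in GMPs. Endothelial cells are also rich in *Erg* and *Fli1*, and the part of their markers, given with *Ets1*, in the levels of both was not tested.

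*Elf1*, a regulator of haematopoietic and vascular genes, and *Elf4*, which promotes the cycling of quiescent stem cells, were not called between the genotypes. They lie at chr14:79481194-79582494 and chrX:48411046-48463132. *Elf1* was at 352, 456, 442 and 307 CPM in UREΔ LSKs and at 340, 427, 314 and 335 CPM in WT LSKs. The GMP levels were 262, 302, 328 and 309 CPM in UREΔ and 287, 316, 288 and 237 CPM in WT. The log2 fold changes of *Elf1* were 0.11 (95% confidence interval -0.29 to 0.51) in LSKs and 0.08 (95% confidence interval -0.25 to 0.42) in GMPs, the narrowest intervals of the 9 members tested. *Elf4* was lower throughout, from 21.6 to 38.6 CPM in LSKs and from 14.8 to 37.5 CPM in GMPs, and differed by 0.02 (95% confidence interval -0.45 to 0.50) and 0.25 (95% confidence interval -0.35 to 0.85). *Elf1* shares 327 exonic bases with *Wbp4* on the opposite strand, and the libraries do not mark strand.

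*Etv6*, a repressor required for stem cell survival in adult marrow, lies at chr6:134035700-134270158. It was at 59.7, 90.7, 75.8 and 75 CPM in UREΔ LSKs and at 76.9, 148, 89.6 and 68.9 CPM in WT LSKs. GMP levels were 45.6, 96.9, 66.2 and 65.4 CPM in UREΔ and 70.4, 88.6, 75 and 75.3 CPM in WT. The groups overlapped, with log2 fold changes of -0.37 (95% confidence interval -0.95 to 0.20) and -0.19 (95% confidence interval -0.68 to 0.30). *Etv6* shares 135 exonic bases with the opposite-strand gene *Gm17089*. The other 8 members share no exonic base with another annotated gene. *Fli1* and *Ets1* are neighbours on chromosome 9 and *Erg* and *Ets2* on chromosome 16, and in neither pair were both genes called between the genotypes.

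Over maturation, 2 of 9 members were called lower in WT GMPs than in WT LSKs (*Ets1* and *Ets2*), with 27.3% of all genes called (15.8% lower), and 2 of 9 were called higher in UREΔ GMPs than in UREΔ LSKs (*Spi1* and *Ets1*), with 21.8% of all genes called (9.2% higher). These shares are near the background of each comparison. With the replicate block 4 were called in each, adding *Spic* (-0.76, adjusted p = 0.00464) and *Erg* in WT and *Ets2* and *Erg* in UREΔ.

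Of the 16 further ETS genes in the table, 10 passed the filter in LSKs and 9 in GMPs. Those not tested include *Spdef*, *Elf3*, *Elf5*, *Ehf*, *Fev* and *Etv2*, which were at or near 0 in all groups. In LSKs 1 of the 10 was called, *Etv4*, and in GMPs 0 of the 9 by edgeR or DESeq2, with 0 at an unadjusted edgeR p under 0.05 (6.14% and 8.3% of all genes were called, as above). *Etv4* encodes a factor of the PEA3 subgroup with *Etv1* and *Etv5*, induced by receptor tyrosine kinase signalling. It was at 15.8, 0.96, 0.421 and 19.4 CPM in UREΔ LSKs and at 0.288, 0, 0.117 and 0.322 CPM in WT LSKs, that is, at 405, 29, 10 and 464 counts against 9, 0, 3 and 8. Most of the transcript was thus in replicates 1 and 4. The log2 fold change was 5.59 (SE 1.36, edgeR adjusted p = 0.0418), the call was lost without any 1 of 6 libraries (adjusted p of 0.0898 to 0.114 without UREΔ replicate 1 or 4 or any WT replicate), within replicates 2 and 3 the value was 3.49 (adjusted p = 0.43), and with Y-linked transcripts as a covariate the adjusted p was 0.0938. On counts thinned to the smallest library 0 of the further ETS genes were called in LSKs by edgeR.

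*Etv5* had more transcript. It was at 152, 37.3, 44.3 and 119 CPM in UREΔ LSKs against 59.4, 19.8, 10.1 and 48.9 CPM in WT, and at 31.4, 6.68, 13 and 31.2 CPM in UREΔ GMPs against 18.1, 5.89, 3.13 and 12.1 CPM in WT. UREΔ was above WT in 4 of 4 same-numbered pairs in both cell types. Without the block *Etv5* was not called (1.32, SE 0.611, edgeR adjusted p = 0.349 in LSKs and 1.07, SE 0.621, adjusted p = 0.396 in GMPs). With the replicate block it was called in both (1.39, SE 0.195, adjusted p = 0.00411 and 1.08, SE 0.299, adjusted p = 0.0413). The third PEA3 member, *Etv1*, differed by 0.54 in LSKs (95% confidence interval -0.13 to 1.20) and by -1.17 in GMPs (95% confidence interval -2.41 to 0.06).

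Over maturation, 2 of the 9 further ETS genes tested fell in WT without the block, where 15.8% of all genes did, namely *Etv1* (-2.21, SE 0.423, edgeR adjusted p = 0.00453) and *Elk3* (-1.11, SE 0.264, adjusted p = 0.0131), a factor that responds to mitogens with serum response factor. In UREΔ 3 of 10 fell without the block, where 12.6% of all genes did, namely *Etv1* (-3.98, SE 0.47, edgeR adjusted p = 0.000551), *Etv5* (-2.15, SE 0.608, adjusted p = 0.0317) and *Elk4* (-0.73, SE 0.179, adjusted p = 0.0178), the last a relative of *Elk3*. The *Etv5* call was lost without UREΔ GMP replicate 2, 3 or 4 or UREΔ LSK replicate 1 or 4 (adjusted p of 0.0516 to 0.0846), and that of *Elk4* without UREΔ GMP replicate 4 or UREΔ LSK replicate 1 or 4 (0.0509 to 0.0632). With the replicate block 6 of 9 were called lower in WT (*Etv1*, *Etv3*, *Etv5*, *Elk1*, *Elk3* and *Erf*) and 6 of 10 in UREΔ (*Etv1*, *Etv3*, *Etv4*, *Etv5*, *Elk3* and *Elk4*), where 25.1% and 18.6% of all genes were called lower. *Etv5* was lower in GMPs in 4 of 4 same-numbered pairs of each genotype, with blocked values of -1.81 in WT (SE 0.119, edgeR adjusted p = 1.37e-05) and -2.15 in UREΔ (SE 0.162, adjusted p = 6.04e-05), and the blocked interaction was not called (-0.28, SE 0.34, adjusted p = 0.69). The broadly expressed *Gabpa* and *Elf2* were among the more abundant of the 16, with genotype differences of -0.06 and 0.08 in LSKs and 0.10 and 0.10 in GMPs.

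Whether the other factors filled the place of *Spi1* was read from summed levels per length, CPM divided by the length in kb of the principal transcript, which lets genes be added and compared. In WT LSKs *Spi1* was the third most abundant of 26 ETS transcripts at 61 ± 19.7 CPM per kb (SD, n = 4), after *Elf1* (83.6 ± 11.8) and *Fli1* (78.7 ± 23.1), whose ranges overlap. In UREΔ LSKs it was at 1.48 ± 0.697 CPM per kb and ranked 17, and its share of the summed ETS level went from 16.6% ± 5.5 to 0.472% ± 0.267. In GMPs the share went from 23.3% ± 8.27 in WT to 4% ± 1.62 in UREΔ. *Erg*, *Ets1* and *Etv6* stood well under *Elf1* and *Fli1* in all groups, at 6.45 to 33.5 CPM per kb.

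In LSKs *Spi1* fell by 59.5 CPM per kb, and the 9 other members together differed by -1.55 CPM per kb (240 ± 31.3 in UREΔ against 242 ± 38.1 in WT). The means of *Elf1* (by 8.33), *Erg* (4.97) and *Fli1* (4.22) were higher and those of *Ets1* (-8.70), *Spic* (-6.22) and *Etv6* (-3.68) lower, with *Spic* the only one of these 6 that was called. With the 16 further ETS genes added, the 25 genes other than *Spi1* differed by 20.5 CPM per kb (330 ± 60 against 310 ± 55.9), of which *Etv5* gave 13.5 and *Etv4* 3.83. This difference is smaller than the SD between replicates, and in same-numbered pairs it was from -11.8 to 39.4, higher in UREΔ in 3 of 4. The sum of all 26 was 332 ± 59.7 in UREΔ and 371 ± 59 in WT LSKs, 10.5% lower in UREΔ (percent change -10.5), with overlapping ranges of 270 to 408 and 299 to 430 CPM per kb. It was lower in UREΔ in 4 of 4 same-numbered pairs, with differences of -60.8 to -21.7 CPM per kb (mean -39 ± 17.2, SD of the pairs). With a library left out the percent change of the sum was between -17.4 (without UREΔ replicate 1) and -4.93 (without UREΔ replicate 3). That of the 25 others, 6.61, turned negative without UREΔ replicate 1 (-1.61) or WT replicate 3 (-1.48) and was at most 13.6 (without WT replicate 1).

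In GMPs *Spi1* fell by 58.1 CPM per kb, and the 9 other members were higher by 27.2 CPM per kb (210 ± 36.1 in UREΔ against 183 ± 34.9 in WT), of which *Ets1* gave 16.1. *Ets1* went from 6.45 ± 2.12 to 22.6 ± 7.99 CPM per kb and from 2.15% to 8.1% of the summed level, the third place after *Fli1* and *Elf1* in UREΔ GMPs. All 25 other ETS genes together differed by 33.4 CPM per kb (264 ± 48.7 against 231 ± 46.1) and the total by -24.8 CPM per kb (275 ± 46.5 against 299 ± 40.9). Both differences lie within the SD of a group, while the other ETS genes were higher in UREΔ in 4 of 4 same-numbered pairs (differences of 12.4 to 61.7, mean 33.4 ± 20.9), and the total was lower in 4 of 4 (differences of -43.2 to -6.0, mean -24.8 ± 17.1). These paired values were chosen after the sums were seen and carry no test. With a library left out the percent change of the total in GMPs, -8.27, was between -12.8 (without UREΔ replicate 1) and -1.69 (without UREΔ replicate 3), and that of the others, 14.5, between 5.17 (without WT replicate 3) and 23.5 (without WT replicate 1). In neither cell type did the mean difference of the other ETS transcripts reach the level lost with *Spi1*, and the summed level of all 26 was lower in UREΔ in each of the 4 pairs of both cell types. Transcript levels say nothing of protein, and binding was not measured in these libraries.

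**Figure D4:**
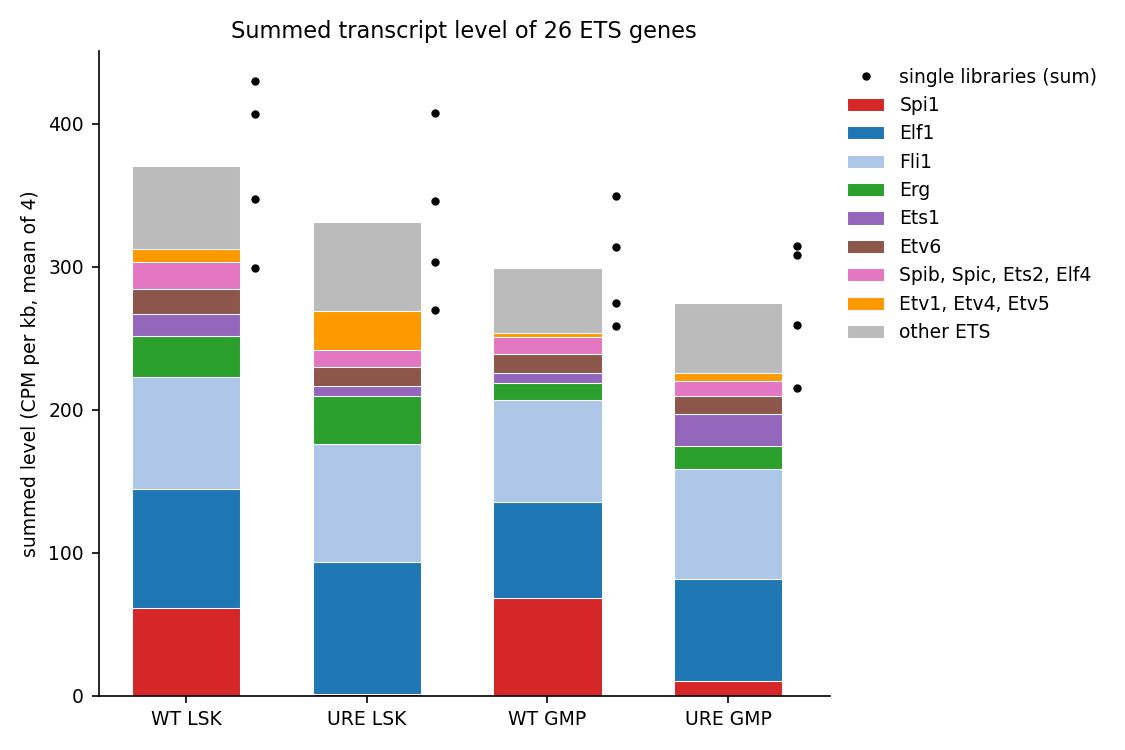
Summed transcript level of the 26 ETS genes in the table by group, in CPM per kb of the principal transcript. Stacked bars are means of 4 libraries with *Spi1* at the base, and black points are the sums of single libraries. The *Spi1* part goes from 61 to 1.48 CPM per kb in LSKs and from 68.6 to 10.5 CPM per kb in GMPs, and the points of the genotypes overlap.

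Genes that PU.1 is known to activate were read beside the ETS transcripts. Of 22 such genes, 20 were tested in LSKs, where 11 fell and 0 rose (median log2 fold change -1.50), and 20 in GMPs, where 6 fell and 1 rose (median -0.59). Over all genes 3.76% fell and 2.38% rose in LSKs, and 3.63% fell and 4.67% rose in GMPs. The list was drawn up with earlier results of these data known. Large falls in LSKs were those of *Itgam*, the integrin chain CD11b (-5.09, SE 0.759), *Ncf4*, a subunit of the phagocyte NADPH oxidase (-3.41, SE 0.489), and *Cd14*, the lipopolysaccharide co-receptor (-4.21, SE 0.809). In GMPs they were those of *Cd14* (-4.22, SE 0.531), *Csf1r*, the receptor of M-CSF (-3.44, SE 0.636), and *Flt3*, a cytokine receptor of early progenitors (-2.78, SE 0.428). *Il7r*, the interleukin-7 receptor chain, was also called lower in GMPs, but at 1.08 ± 0.537 CPM in WT and 0.0361 ± 0.0723 CPM in UREΔ it was too low for a fold change to be given. *Fcgr3*, which encodes Cd16 and belongs to the gate that defines GMPs, rose in GMPs (1.34, SE 0.319, edgeR adjusted p = 0.0326), a call that was lost without UREΔ GMP replicate 2 or 4 or any WT GMP replicate, and with the Y-linked covariate, where 0 genes of the list were called higher in GMPs by edgeR. In GMPs the replicate block called 9 genes of the list lower and 3 higher (6.82% and 9.52% of all genes), DESeq2 called 7 and 2 (3.19% and 4.01%), and within replicates 2 and 3 edgeR called 1 and 0. In LSKs 13 were called lower with the block (5.62% of all genes) or in the joint fit. The LSK count was between 5 and 10 when libraries were left out one at a time, at or under 7 in each case but that of UREΔ LSK replicate 3 (10), with the lowest count without WT LSK replicate 2, and it was 5 with the Y-linked covariate and 6 within replicates 2 and 3.

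As for *Spi1*, the interaction was called for *Ncf4* (2.88, SE 0.539, edgeR adjusted p = 0.0162). Its level was 56.9 ± 12.2 CPM in WT and 5.47 ± 4.02 CPM in UREΔ LSKs, and 105 ± 15.7 CPM in WT and 75.2 ± 22.8 CPM in UREΔ GMPs. Of 12 factors known to act together with PU.1, 10 were tested in each cell type. The 1 called in each was *Irf8*, an IRF factor of monocyte and dendritic cell fates that binds with PU.1, and it was lower in both. Over all genes 6.14% were called in LSKs and 8.3% in GMPs, and nothing particular to the list is read from a count of 1. *Irf8* was at 4.36, 9.04, 3.66 and 4.39 CPM in UREΔ LSKs against 60.7, 53.9, 29.5 and 48.2 CPM in WT (-3.19, SE 0.36, edgeR adjusted p = 0.000947). UREΔ GMPs were at 23.2, 129, 16 and 27.1 CPM against 399, 237, 170 and 287 CPM in WT (-2.51, SE 0.641, edgeR adjusted p = 0.0428). The *Irf8* call in GMPs was lost without any 1 library except UREΔ GMP replicate 2 (adjusted p of 0.0542 to 0.127), within replicates 2 and 3 (-1.54, adjusted p = 0.517) and with the Y-linked covariate (adjusted p = 0.0896), and without UREΔ GMP replicate 2, the highest UREΔ library, the value was -3.65. *Runx1*, *Cebpa* and *Gata2* were not called, at -0.65, -1.44 and -0.06 in LSKs and 0.13, 0.28 and -0.01 in GMPs. Of the 10 factors tested, 4 in LSKs and 4 in GMPs, *Irf8* among them, were at an unadjusted edgeR p under 0.05.

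None of the 7 other members that could be compared closely followed the course of *Spi1* over the 16 libraries, and *Spib* and *Ets2* lay below the level required. Over 9072 genes whose mean reached 3 on the log2 CPM scale, Pearson's r of log2 CPM with *Spi1* was 0.50 for *Spic*, 0.16 for *Ets1*, -0.40 for *Elf1* and -0.38 for *Erg*, given as a description since the libraries share groups. The most alike genes were *Bex6* (r = 0.967), *BC035044*, *Gm2629*, *Haao*, *Sla*, *Tnfrsf13b*, *Cd24a*, *Gng10*, *Nfam1* and *Lipo3* (r = 0.926). *Bex6* was at 4.69 CPM in UREΔ LSKs and 54.9 CPM in WT LSKs, and at 16.2 and 96.2 CPM in GMPs. The most opposite were *Sulf2* (r = -0.964), *Zcwpw1*, *Clec4e*, *Fam114a1* and *Tpm1* (r = -0.907). *Sulf2*, a heparan sulphate sulphatase, was at 76.3 and 3.35 CPM in UREΔ and WT LSKs and at 11.9 and 2.91 CPM in GMPs. With group means removed, r fell to between -0.07 and 0.60 for the 10 alike genes, so that the likeness lies mostly between groups.

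Genes around *Spi1* were read because the deleted element lies near it. Of 23 genes annotated within 200 kb, 15 were tested in LSKs and 14 in GMPs, and in each cell type 1 was called higher and 0 lower. Over all genes tested, 2.38% were called higher and 3.76% lower in LSKs, and 4.67% and 3.63% in GMPs. A count of 1 is near these shares, and nothing particular to the neighbourhood is read from it. The gene called was *Rapsn* in both, which encodes a protein that clusters acetylcholine receptors at the neuromuscular junction and lies 36.7 kb from *Spi1* at chr2:91035620-91045729. It was at 22.2, 17.1, 20.9 and 14.4 CPM in UREΔ LSKs against 2.98, 3.62, 4.17 and 2.34 CPM in WT (log2 fold change 2.47, SE 0.281, edgeR adjusted p = 0.000983). Its GMP levels were 16.3, 14.7, 20.3 and 18.3 CPM against 5.8, 7.35, 5.37 and 6.01 CPM (1.502, SE 0.214, edgeR adjusted p = 0.00313). The genotypes did not overlap in either cell type, as for 12.6% of the genes tested in LSKs and 14.8% in GMPs. Within replicates 2 and 3 the *Rapsn* difference in GMPs was 1.45 with an edgeR adjusted p of 0.202. The genes next to *Spi1*, *Slc39a13* and *Mybpc3*, were not called, with 0.29 and no test in LSKs and 1.03 (edgeR adjusted p = 0.224) and 1.26 (edgeR adjusted p = 0.187) in GMPs.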

How the data were processed

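Unstranded, paired-end libraries for low RNA input (10 ng at most) carried no molecular identifiers. They were quantified by the authors with Salmon and summarised per gene with tximport. They deposited 1 table of estimated counts, whole numbers that are not normalised, for 54347 genes and 16 libraries. Per the labels the build is GRCm38, and an annotation release is named in the study's methods for its single-cell libraries but not for these bulk libraries. The limit given for a count of 0 covers counting error only, and the 95% confidence intervals come from the fit and include the spread between replicates.

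The groups and replicate numbers come from the labels. The members and gene lists were chosen with earlier results of these data known. Gene models were taken from GENCODE M21 (GRCm38), which holds 54094 of the gene IDs, and promoter windows from RefSeq (GRCm38.p6).

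Each comparison was fitted on its 8 libraries (the interaction on 16) with edgeR 4.0.16 (limma 3.58.1, R 4.3.3), using TMM, filterByExpr, the quasi-likelihood test and Benjamini-Hochberg adjustment over all genes tested. A call needs an adjusted p under 0.05 and, except for the interaction, a change above 1.5-fold, the study's thresholds. The study used DESeq2, which was run as an alternative (1.42.0), and the fits were also run on counts thinned to the smallest library. CPM are counts relative to the TMM effective library size over all 16 libraries. The SE is the log2 fold change divided by the root of the F statistic. For the exact permutation test CPM were taken to log2 after adding a prior count (2). CPM per kb uses the principal transcript. On simulated counts with 200 genes changed 4-fold, 64.5% were recovered in LSKs (of 14806 genes), 69.5% in GMPs (of 13533) and 25.5% by the interaction (of 15540).

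Same-numbered libraries deviated together in every pair. The correlation of their deviations from the group means was 0.304 to 0.61 in LSKs, 0.282 to 0.624 in GMPs, 0.47 to 0.767 in WT and 0.442 to 0.576 in UREΔ. The replicate number was therefore also fitted as a block. Replicates 1 and 4 against 2 and 3 is a split seen in the data, and the labels give no date or run for it. No pair of libraries in a group agreed within counting noise, with a chi-square per degree of freedom of at least 32.4.

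Beyond the 10 members, genes were named by rule: all further ETS genes called in any contrast, up to 4 called genes of each list per contrast and direction, the 10 genes most like and 5 most opposite to *Spi1*, and called genes near *Spi1*. *Etv5*, *Gabpa*, *Elf2*, *Runx1*, *Cebpa*, *Gata2*, *Lyl1* and the neighbours *Slc39a13* and *Mybpc3* were named after their values were seen. *Etv3l* was not found in the table. Some genes of the lists that the rule would name are not reported here. Plots were drawn with matplotlib 3.10.9.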

Additional observations from a re-analysis of the deposited data

Results flagged for a closer look

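The genotype effect on *Spi1* differed between the cell types: it was weaker in GMPs than in LSKs by 2.64 on the log2 scale (interaction 2.642, edgeR adjusted p = 0.0218). It was in the same direction, lower in UREΔ, in all 8 same-numbered pairs.

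The genotype effect on *Ets1* differed between the cell types by 2.99 on the log2 scale (interaction 2.987, edgeR adjusted p = 0.00885). UREΔ was below WT in 4 of 4 same-numbered pairs of LSKs and above WT in 4 of 4 pairs of GMPs.

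A library far from the other 3 of its group was looked for in 38 groups of values, the total counts and the members among them, and 0 were found. Chance alone gives about 1 in 20.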

How the results depend on the processing

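The calls of *Spi1* in LSKs and GMPs and of *Ets1* in GMPs were kept by DESeq2, by other size factors and filters, in the joint fit, with the replicate block or batch term, with the Y-linked covariate, on thinned counts and without any 1 library, and were lost in GMPs within replicates 2 and 3. In LSKs 2 members were called, against 1 in the joint fit, 1 within replicates 2 and 3, 1 with the Y-linked covariate, and 1 to 2 with a library left out. The replicate block gave 3 in LSKs, 2 in GMPs and 2 for the interaction, and 4 over maturation in WT as in UREΔ. It moved the number of all genes called from 930 to 1433 in LSKs, from 1148 to 2260 in GMPs and from 194 to 1047 for the interaction, and the calls of members or further ETS genes it changed stand beside them in the text. Within replicates 2 and 3, 0 members were called in GMPs and 0 for the interaction, where edgeR called 108 and 2 genes in all, against 386 in LSKs. DESeq2 called 1631, 1995 and 674 genes, and the Y-linked covariate left 510 in LSKs and 630 in GMPs. Without a library the interaction called 1 to 2 members. In WT maturation 2 members were called, against 4 with library size only, 1 without a low-count filter, 4 with the batch term, and 1 to 3 with a library left out.

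Scaling by library size only moved the median log2 fold change of all genes to -0.42 in WT and -0.40 in UREΔ maturation, from -0.09 in both, and the genes called higher and lower from 1702 and 2335 to 775 and 3695 in WT and from 1325 and 1808 to 789 and 2782 in UREΔ. For members near 0 the sign changed: *Spi1* in WT maturation with library size only (-0.17) and within replicates 1 and 4 (-0.0027), *Spic* in UREΔ maturation with library size only (-0.15), the replicate block (-0.069) and within replicates 1 and 4 (-0.23), *Elf1* in LSKs within replicates 1 and 4 (-0.066), *Ets2* in GMPs within replicates 2 and 3 (0.21), and in the interaction *Fli1* with DESeq2 (-0.012), RLE (-0.011), no filter (-0.023) and within replicates 2 and 3 (-0.063), and *Elf1* (0.16) and *Etv6* (-0.28) within replicates 1 and 4. Of 432 values with a library left out, 39 changed sign, and of 567 other alternatives 13. The cause of these changes was not tested.

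With a library left out, the values that changed sign ranged as follows. In LSKs it was *Elf4* from -0.086 to 0.12, *Erg* from -0.085 to 0.57 and *Fli1* from -0.13 to 0.20. In GMPs it was *Ets2* from -0.50 to 0.0041, *Elf1* from -0.0033 to 0.14 and *Fli1* from -0.16 to 0.29. In the interaction it was *Ets2* from -0.026 to 0.48, *Elf1* from -0.15 to 0.043, *Erg* from -0.21 to 0.70, *Fli1* from -0.22 to 0.22 and *Etv6* from -0.11 to 0.30. In WT maturation it was *Spi1* from -0.034 to 0.39 and *Fli1* from -0.29 to 0.13. In UREΔ maturation it was *Spic* from -0.43 to 0.39 and *Fli1* from -0.33 to 0.069. The percent change of the summed ETS level ranged from -17.4 to -4.93 in LSKs and from -12.8 to -1.69 in GMPs. A coding length from RefSeq proteins was not run; the GENCODE coding length and the longest transcript, chosen after seeing the data, took its place. They gave a percent change of the sum of -11.4 and -10.5 in LSKs and -5.11 and -8.31 in GMPs, and of the other ETS genes of 4.05 and 6.94 in LSKs and 16.5 and 14.7 in GMPs.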
